A study of Mus musculus with 4 samples.

Results

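Genes of T lymphocyte effector function were followed cell by cell in the small intestine of mice after ischemia/reperfusion (I/R): Ifng, Tnf, Gzma, Gzmb, Gzmk, Prf1, Nkg7, Ccl5, Xcl1 and Il7r, 10 of the 32286 features counted. They were taken by gene symbol. Ifng and Tnf were chosen by their lower levels in the CD8 T cells of the mutant mice, so that the values of all 10 genes in CD8 T cells are given below as a description, with no test. The tissue was the distal jejunum at 18.5 h after surgery, in which the blood supply of the gut was cut off for a time and then let back in, from 2 Control mice (Foxc1fl/fl;Foxc2fl/fl) and 2 EC-Foxc-DKO mice (Cdh5-CreERT2;Foxc1fl/fl;Foxc2fl/fl), all adult males. Both groups carried the floxed alleles, and the Cre recombinase of the EC-Foxc-DKO mice was driven by the Cdh5 promoter, which is active in the endothelium of blood and lymphatic vessels, and was induced with tamoxifen before surgery. Control mice carried no Cre, and no mice without I/R were analysed here, so that an effect of the injury itself cannot be told apart from the resting state.

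T lymphocytes act on other cells through secreted proteins and through killing. Ifng encodes interferon gamma, which activates macrophages and epithelial cells, and Tnf encodes tumor necrosis factor, an inflammatory cytokine that myeloid cells make as well. Granzymes, the serine proteases encoded by Gzma, Gzmb and Gzmk, are stored in cytotoxic granules and enter a target cell through pores of perforin, the product of Prf1, while Nkg7 encodes a membrane protein of these granules. Ccl5 encodes a chemokine that draws T cells and myeloid cells, Xcl1 encodes the ligand of XCR1 on dendritic cells, and Il7r encodes the alpha chain of the interleukin 7 receptor, on which naive and memory T cells depend for survival. The epithelium of the small intestine holds many T cells, γδ T cells among them, that keep granzyme transcripts at rest.

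The genes lie at different places of the genome (GRCm38), Ifng (ENSMUSG00000055170) at chr10:118441046-118445892 on the plus strand and Tnf (ENSMUSG00000024401) at chr17:35199381-35202007 on the minus strand. RefSeq promoter windows of 250 bases before to 50 bases after the transcription start (GRCm38.p6) were at hand for 9 of the 10 genes, all but Ccl5. They were searched on both strands for letters that T cell transcription factors are known to bind. These were GGAAA, the core of an NFAT site, TGANTCA, an AP-1 site, TGTGGT, a Runx site, and AGGTGT, the core of a T-box site. The 250 bases before the start are shown for the cytokine genes Ifng and Tnf, for Gzmb as a granzyme and for Xcl1. Among those of the 10 genes fitted in γδ T cells, Xcl1 had the largest difference between genotypes, though it was not called. Matches to the NFAT core (GGAAA, or TTTCC on the other strand) and to the AP-1 site are in capitals.
Ifng, chr10:118440796-118441045, plus strand: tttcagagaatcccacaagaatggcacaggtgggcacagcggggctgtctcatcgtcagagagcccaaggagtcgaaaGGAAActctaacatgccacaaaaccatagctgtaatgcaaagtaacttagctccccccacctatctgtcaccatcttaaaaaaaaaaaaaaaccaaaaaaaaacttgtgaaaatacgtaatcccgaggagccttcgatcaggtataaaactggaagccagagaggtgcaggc
Tnf, chr17:35202008-35202257, minus strand: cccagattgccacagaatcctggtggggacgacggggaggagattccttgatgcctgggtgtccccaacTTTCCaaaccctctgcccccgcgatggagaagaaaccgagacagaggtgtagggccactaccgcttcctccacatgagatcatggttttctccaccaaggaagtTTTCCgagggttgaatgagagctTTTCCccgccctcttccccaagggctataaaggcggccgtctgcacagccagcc
Gzmb, chr14:56262335-56262584, minus strand: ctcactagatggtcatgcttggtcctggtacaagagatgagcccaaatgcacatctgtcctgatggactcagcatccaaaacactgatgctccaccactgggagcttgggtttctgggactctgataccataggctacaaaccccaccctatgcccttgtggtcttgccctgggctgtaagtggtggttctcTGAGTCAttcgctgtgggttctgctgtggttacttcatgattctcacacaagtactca
Xcl1, chr1:164935523-164935772, minus strand: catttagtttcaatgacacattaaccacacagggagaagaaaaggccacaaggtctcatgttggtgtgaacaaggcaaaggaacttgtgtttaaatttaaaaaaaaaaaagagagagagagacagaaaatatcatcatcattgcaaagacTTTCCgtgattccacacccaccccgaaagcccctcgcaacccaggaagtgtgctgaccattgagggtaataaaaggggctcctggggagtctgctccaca
The window of Ifng held 1 NFAT core and no other of the 4 motifs. That of Tnf held 3 NFAT cores, which begin at positions -181, -77 and -54 from the start, and 1 T-box core. Gzmb differed from both cytokine genes, with the AP-1 letters TGAGTCA at position -58, 2 Runx sites and no NFAT core, and Xcl1 held 1 NFAT core and 1 Runx site. Of the other genes, Gzma and Nkg7 held the NFAT core, a Runx site and a T-box core, Prf1 a Runx site and a T-box core, Gzmk 2 T-box cores, and Il7r an NFAT core and a Runx site. These letters are common, since 61.3% of 32851 promoter windows held the NFAT core, 16.8% the Runx site, 13.7% the T-box core and 7.81% the AP-1 site, and no match overlapped another in the windows of these genes. A match describes the sequence and shows no binding.

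Each mouse gave 1 droplet library, in which every captured molecule carries a unique molecular identifier (UMI). The libraries held 3623 to 7347 barcodes and 15557181 to 72046346 UMIs. A limit of 10% mitochondrial UMIs per cell left 5615 of the 22679 barcodes (24.8%), from 348 in Control replicate 2, whose median mitochondrial share was 54.0%, to 2742 in EC-Foxc-DKO replicate 1. Libraries shared 51 barcodes, each found in 2 libraries. Of the kept cells, 24 carried such a barcode, 3 of them T cells, and leaving these cells out is one of the alternatives below. The targeted genes were too sparse to check the genotypes, with 9 and 11 Foxc1 UMIs in the kept cells of Control mice, 6 and 3 in those of EC-Foxc-DKO mice, and none of Foxc2, while Cre had 3 UMIs in each EC-Foxc-DKO mouse and none in the Control mice.

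T cells were found by clustering the kept cells without the 10 genes, and 2 clusters with 544 cells held 13 of 14 T lymphocyte markers. The larger cluster, with 409 cells, would be named CD8+ T cells from the markers of the study, but Trdc and Tcrg-C1, constant genes of the γδ receptor, were among its leading genes. Each T cell was therefore given a class from its own receptor genes. CD8αβ T cells had at least 1 UMI of Cd8b1 and none of Trdc and Cd4, γδ T cells had Trdc and neither Cd8b1 nor Cd4, and CD4 T cells had Cd4 and none of Trdc, Cd8a and Cd8b1. This gave 72 CD8αβ T cells (13.2%), 291 γδ T cells (53.5%), 35 CD4 T cells and 146 T cells without a class (26.8%). Values of 4 mice are listed throughout as Control replicate 1, Control replicate 2, EC-Foxc-DKO replicate 1 and EC-Foxc-DKO replicate 2. CD8αβ T cells numbered 5, 12, 43 and 12 by mouse, and γδ T cells 51, 44, 168 and 28. All 8 CD8 markers were detected in the CD8αβ class of each mouse, at a summed level of 6021 to 10481 CPM (counts per 1000000 UMIs, summed over a class within a mouse), but 7 of them were detected in γδ T cells too, at 7193 to 10454 CPM, so the gate on Cd8b1 and Trdc is what separates the classes. Trac, a gene of the αβ receptor, had UMIs in 45.1 to 71.4% of γδ T cells, so the γδ class rests on Trdc and is not a gate on receptor protein. Conversely, the γδ gene Tcrg-C1 had UMIs in 5 of the 12 CD8αβ T cells of Control replicate 2, against 0, 1 and 0 cells in Control replicate 1 and EC-Foxc-DKO replicates 1 and 2. Medians of 3208 to 5771 UMIs per cell in both classes left the depth similar between them. With a gate at 1 UMI, a cell can miss its class at this depth, and fewer expressing cells and less RNA per cell cannot be told apart in sums per mouse.

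**Figure D1:**
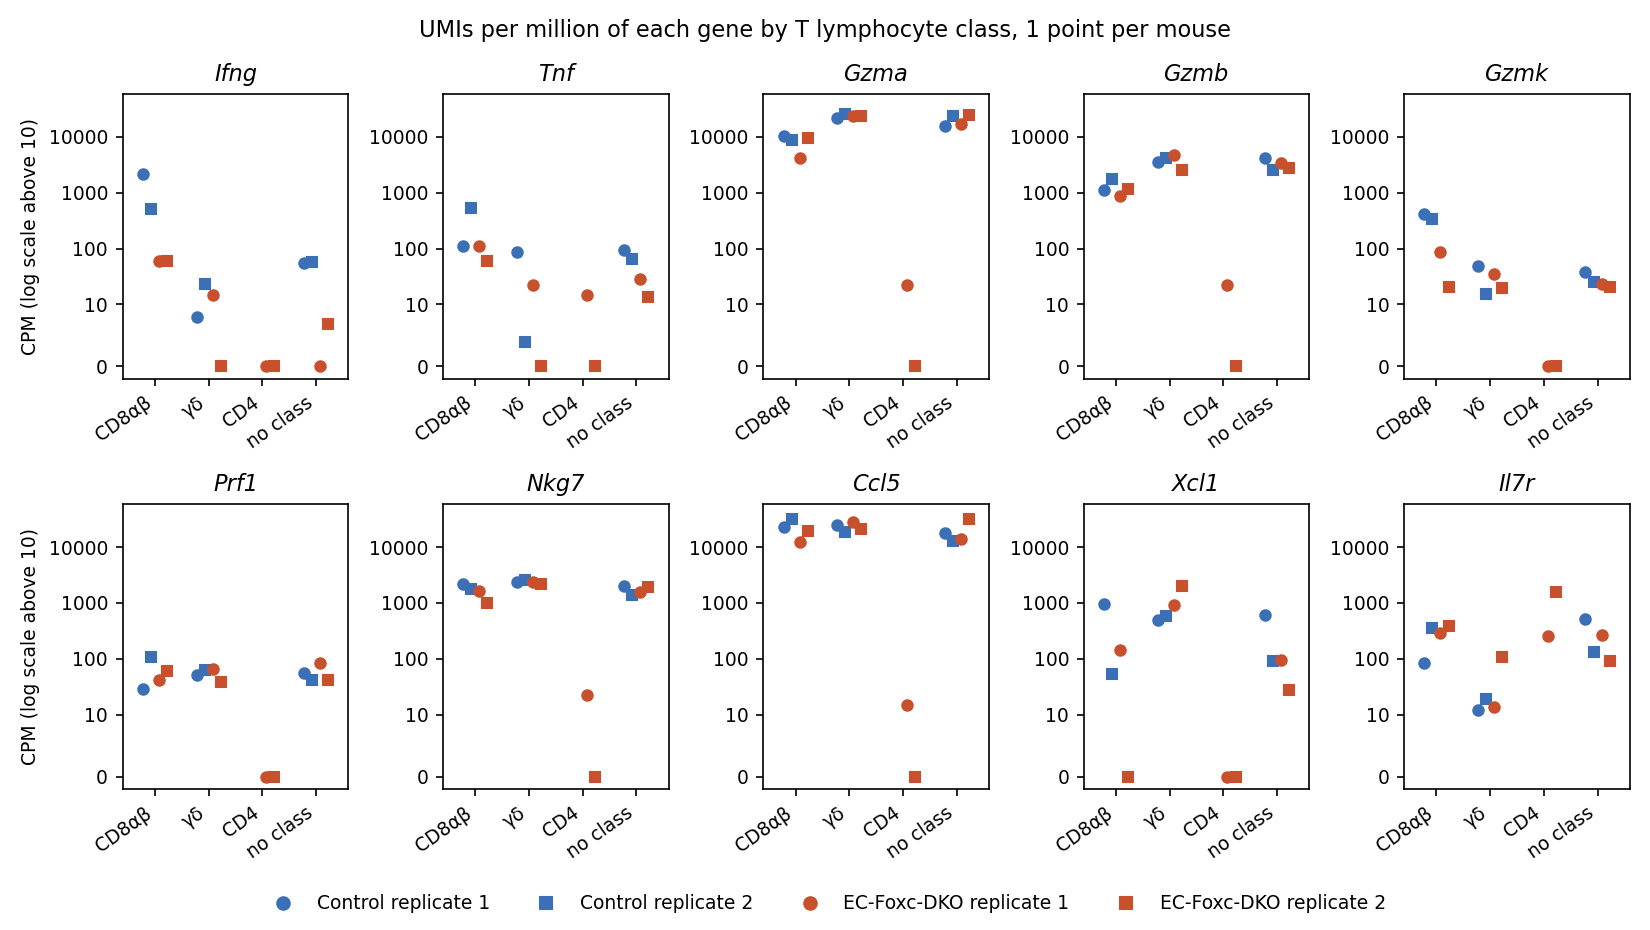
Level of each of the 10 genes in CPM (linear to 10, then a log scale) in CD8αβ, γδ and CD4 T cells and T cells without a class, with 1 point per mouse for classes of at least 5 cells of that mouse. Gzma, Gzmb and Nkg7 are higher in the γδ than in the CD8αβ T cells of each mouse, whereas Ifng sits highest in the CD8αβ T cells of the 2 Control mice, at 2147 and 507 CPM.

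Between the γδ and CD8αβ classes, γδ T cells had more Gzma and Gzmb, and CD8αβ T cells had more Ifng and Tnf. Gzma, which encodes granzyme A, had 21448, 25272, 24020 and 23232 CPM in γδ T cells and 10565, 8642, 4223 and 9621 CPM in CD8αβ T cells. The γδ level was above the CD8αβ level within each of the 4 mice, with means of 23493 ± 1601 and 8263 ± 2805 (SD, n = 4), a ratio of 2.84. Gzmb followed the same order, with 3754 ± 917 CPM in γδ and 1226 ± 364 CPM in CD8αβ T cells, and was higher in γδ T cells of 4 of 4 mice. Nkg7 was higher in γδ T cells of all 4 mice by a smaller margin, at 2352 ± 145 against 1652 ± 502 CPM. Outside the naive-gene subcluster numbered 3 below, CD8αβ T cells had 2496, 1943, 2256 and 1397 CPM of Nkg7. In Control replicate 1 this was above the γδ level. That split was chosen after the data were seen.

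Ifng was found mainly in CD8αβ T cells. Its mean level there was 694 ± 991 CPM against 11.5 ± 9.88 CPM in γδ T cells (SD, n = 4), and the SD above the mean shows how far the 4 mice lay apart. Without Control replicate 1 the CD8αβ mean was 209 CPM, since 65 of the Ifng UMIs of the class lay in 1 cell of that mouse. Of the 159 Ifng UMIs in all kept cells, 77.4% lay in the 72 CD8αβ T cells, 12.6% in γδ T cells and 6.92% in T cells without a class. Tnf, Gzmk and Il7r were also higher in CD8αβ than in γδ T cells of 4 of 4 mice, with means of 203 ± 216 against 28.4 ± 40.6 CPM for Tnf. Gzmk, which encodes granzyme K, had 219 ± 196 against 29.3 ± 14.7 CPM, the opposite order to Gzma and Gzmb. Il7r had 282 ± 137 against 38.1 ± 46.5 CPM. In CD8αβ T cells outside subcluster 3, however, Il7r was at 34.2, 408, 61.4 and 31.0 CPM. These differences between classes were not tested.

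Ccl5, Xcl1 and Prf1 did not keep 1 order over the mice. The chemokine gene Ccl5 had 25265, 18868, 27685 and 20746 CPM in γδ and 23108, 31650, 12397 and 19343 CPM in CD8αβ T cells, higher in γδ T cells of 3 of 4 mice. Xcl1 had 505, 585, 938 and 1987 CPM in γδ T cells and 960, 54.3, 142 and 0 CPM in CD8αβ T cells, also higher in γδ T cells of 3 mice. In Control replicate 1, where it was not, all 34 Xcl1 UMIs came from 1 CD8αβ T cell. Prf1, the perforin gene, had 51.7, 62.0, 65.1 and 39.1 CPM in γδ and 28.2, 109, 41.0 and 61.0 CPM in CD8αβ T cells, and the classes overlapped. The order of Ccl5 depended on the naive-gene cells of subcluster 3. In CD8αβ T cells outside it, Ccl5 was at 27967, 41915, 24820 and 29453 CPM. These levels were above those of γδ T cells in all mice but EC-Foxc-DKO replicate 1.

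CD4 T cells were few, and most of the 10 genes had few UMIs in them. Ifng had no UMI in any of the 35 cells, which for EC-Foxc-DKO replicate 1, with 26 cells, allows a share of cells with a UMI of up to 11.5%, and a cell that expresses the gene can give no UMI at this depth. Levels of the 3 granzyme genes were at most 22.3 CPM in EC-Foxc-DKO replicate 1 and 0 in replicate 2. In the Control mice, 7 Gzmb UMIs came from 1 of the 3 cells of replicate 2, and the 1 cell of replicate 1 had 12 UMIs of Nkg7 and 1 of Gzmk. Il7r had UMIs in 12 of 26 cells (253 CPM) of EC-Foxc-DKO replicate 1 and in 3 of 5 cells (1575 CPM) of replicate 2, while in EC-Foxc-DKO replicate 1 its level in CD8αβ T cells was 294 CPM. The Control mice had only 1 and 3 CD4 T cells, too few for a comparison of genotypes in this class.

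T cells without a class resembled γδ T cells in their granzymes, at 15718, 23645, 17162 and 24920 CPM for Gzma and 4139, 2602, 3361 and 2746 CPM for Gzmb. Their Ifng levels were 55.9, 57.8, 0 and 6.88 CPM and rested on 3, 7, 0 and 1 UMIs. Tnf was at 93.2, 66.1, 28.8 and 13.8 CPM. The cells of this class came from different states in the mice, with 31 of the 40 cells of EC-Foxc-DKO replicate 2 in the subcluster numbered 4 below, and innate lymphocyte markers summed to 876, 421, 372 and 303 CPM. The genotypes were not tested in this class, and the part of these differences in the levels was not tested.

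To see whether the receptor classes hide different cell states, the 544 T cells were clustered again without the 10 genes, into subclusters 0 to 6. The 10 genes still separated them. Subcluster 0, 193 cells of which 76.7% had Trdc, had Gzma in 97.9% and Gzmb in 97.4% of cells, and Il7r in 0 of 193. Subcluster 2, with 78 cells and Trdc in 83.3%, was the Xcl1 group instead, with Xcl1 in 82.1% of cells (2557 CPM over all cells) and Gzma in only 12.8%. Kit and Cd160 were among the leading genes of that subcluster. Nkg7 was found in 99.0% and 97.4% of the cells of these subclusters.

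Ifng, Tnf and Gzmk came together in subcluster 1, in which 39.6% of the 91 cells had Cd8b1 and 48.4% had Trdc. Ifng was found in 17.6% of these cells (281 CPM), Tnf in 35.2% (196 CPM) and Gzmk in 41.8% (196 CPM), against 3.63%, 3.11% and 8.81% in subcluster 0. Ccl3 and Ccl4, chemokine genes that T cells induce on activation, were among its leading genes, as were the immunoglobulin genes Igha and Igkc. By mouse, Ifng in subcluster 1 had 1109, 378, 78.9 and 17.1 CPM, Tnf had 299, 356, 138 and 85.3 CPM and Gzmk had 370, 252, 158 and 68.3 CPM. These cells include most of the CD8αβ T cells with Ifng and Tnf, so the values are not independent of those that chose the genes.

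Subcluster 3 comprised 70 cells led by Dapl1, Lef1, Klf2, Ccr7 and S1pr1, genes of naive and recirculating T cells. Il7r was found in 60.0% of them and Nkg7 in 48.6%, but Gzma in 2.86%, Gzmb in 1.43% and Ifng in 1.43%. Subcluster 5, 40 cells with the innate lymphocyte genes Ncr1 and Klrb1b among the leading genes and Cd3e in 35.0%, also carried Il7r (22 of 40 cells), together with Xcl1 (30.0%) and Tnf (22.5%). The remaining subclusters were tied to single mice. Subcluster 4 held 50 of its 53 cells in EC-Foxc-DKO replicate 2, and subcluster 6, led by the B cell genes Cd74, Cd79a and Ms4a1, held 19 cells of EC-Foxc-DKO replicate 1.

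**Figure D2:**
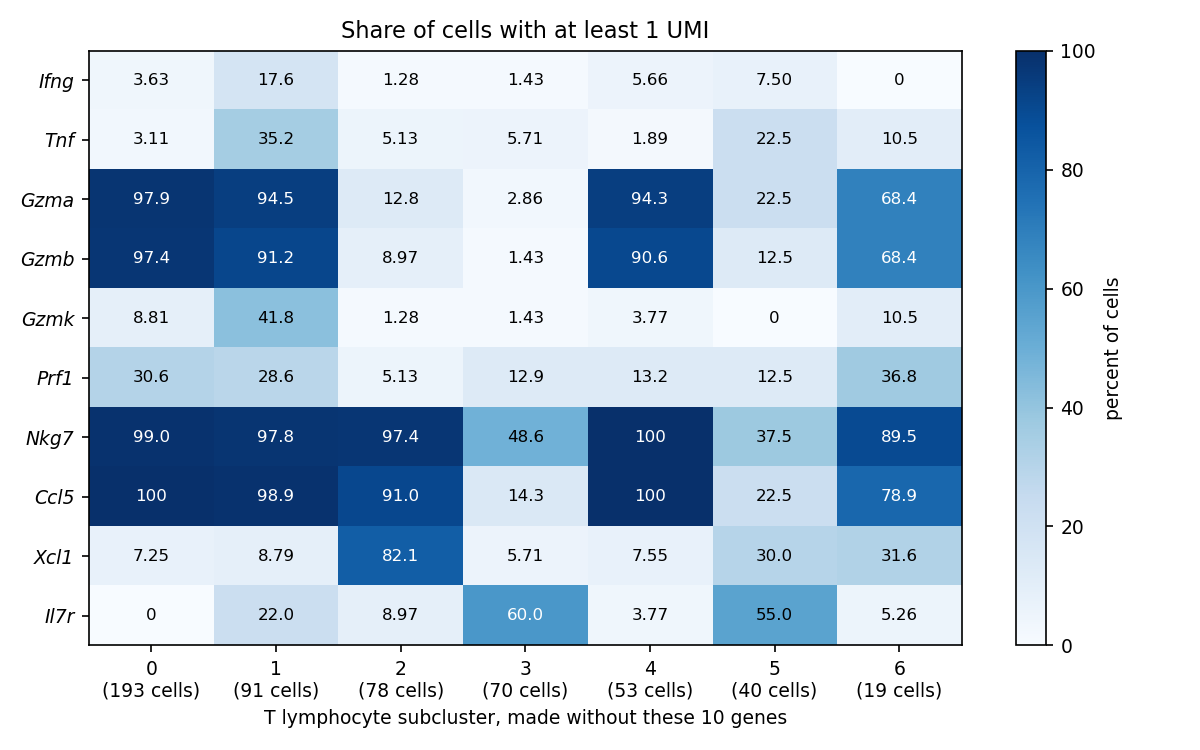
Share of cells with at least 1 UMI of each of the 10 genes (rows, percent, darker for higher shares) in the 7 T lymphocyte subclusters (columns, with their number of cells), which were made without these genes. Ifng, Tnf and Gzmk reach 17.6, 35.2 and 41.8% in subcluster 1, Xcl1 reaches 82.1% in subcluster 2, and Il7r is highest in subclusters 3 and 5.

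The most abundant of the genes also had UMIs in cells that should lack them, whether from free RNA or from doublets was not tested. Follicular B cells, which should lack granzymes, had a Gzma UMI in 4.06% of 1379 cells at a median of 3248 UMIs, and Bottom enterocytes in 4.34 to 11.5% of the cells of a mouse at a median of 30910 UMIs. Thinned to 1000 UMIs per cell, these shares were 1.30% and 0.514%, against 76.1% in γδ T cells. Gzmb reached 1.02% and 1.64% and Ccl5 reached 3.12% and 7.15% of Follicular B cells and Bottom enterocytes. The cytokine genes were far lower there, with Ifng in 0.290% of Follicular B cells and in 0 of 671 Bottom enterocytes, which allows a share of up to 0.447%, and Tnf in 0.435% of Follicular B cells. The share of cells with Gzma in subcluster 3 was 2.86%. Thinned to 1000 UMIs per cell it was 0.680%, between the thinned shares of Bottom enterocytes and Follicular B cells. Whether it is background was not tested.

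The genotypes were compared first in CD8αβ T cells, the contrast on which Ifng and Tnf had been chosen. Ifng had 2147, 507, 59.6 and 61.0 CPM, from 76, 28, 16 and 3 UMIs. Both EC-Foxc-DKO mice were below both Control mice, and the Control mice differed from each other more than the EC-Foxc-DKO mice did. The log2 fold change of EC-Foxc-DKO against Control, fitted by edgeR to the UMIs summed per mouse, was -4.28 ± 0.71 (SE). This SE comes from edgeR's F statistic and is not read as a test in this class. Cells with an Ifng UMI numbered 3 of 5 (60.0%, exact binomial 95% interval 14.7 to 94.7%), 4 of 12 (33.3%, 9.92 to 65.1%), 6 of 43 (5.30 to 27.9%) and 2 of 12 (16.7%, 2.09 to 48.4%). The intervals of all 4 mice overlapped. After thinning to 1000 UMIs per cell the shares were 48.0, 24.2, 4.35 and 7.06%.

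Tnf had 113, 525, 112 and 61.0 CPM, from 4, 29, 30 and 3 UMIs. Here Control replicate 1 and EC-Foxc-DKO replicate 1 were almost level, and Control replicate 2 alone stood above the rest. The share of cells with Tnf was 40.0 and 75.0% in Control mice and 20.9 and 8.33% in EC-Foxc-DKO mice. Tnf did not pass the filter on low counts, so no fold change was fitted with the filter in place. This filter asks for a minimum level in CPM, set from the library sizes of the class. The level must be reached in as many mice as a genotype has.

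A handful of cells carried these counts. In Control replicate 1 a single cell with 5771 UMIs held 65 of the 76 Ifng UMIs (85.5%), 3 of the 4 Tnf UMIs, all 34 Xcl1 UMIs and 228 UMIs of Ccl4. Without the cell with the most Ifng UMIs in each mouse, Ifng was at 371, 272, 37.7 and 23.0 CPM. Ifng was chosen for its lower level in EC-Foxc-DKO mice, so this order is no separate support. Tnf without its top cell was at 33.8, 431, 78.7 and 0 CPM, an order in which Control replicate 1 fell below EC-Foxc-DKO replicate 1. The 2 cytokines were often found in the same cells, with both in 9 of the 15 CD8αβ T cells that had Ifng and the 21 that had Tnf, and in 2, 4, 3 and 0 cells by mouse. In γδ T cells 2 cells had both, of 12 with Ifng and 19 with Tnf.

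**Figure D3:**
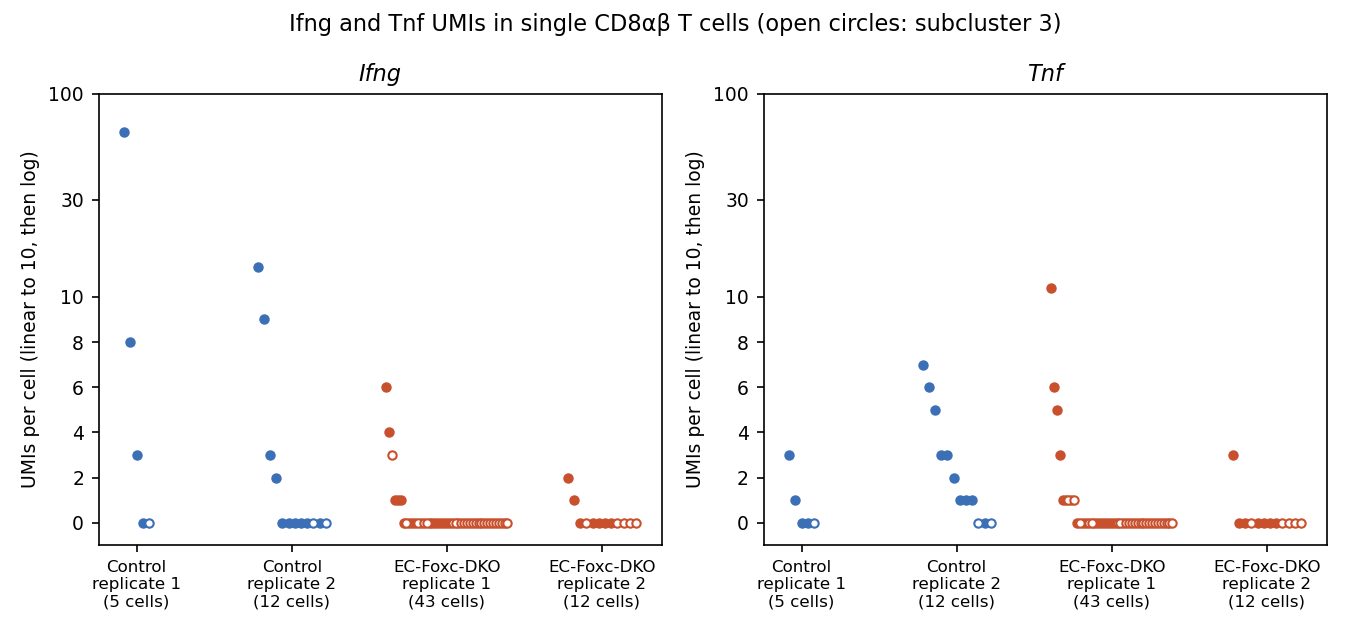
Ifng and Tnf UMIs in each of the 72 CD8αβ T cells by mouse (linear to 10 UMIs, then a log scale), with cells of subcluster 3 as open circles. In Control replicate 1 the cell with 65 Ifng UMIs stands apart, and nearly all open circles, most of which belong to EC-Foxc-DKO replicate 1, lie at 0.

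The granule genes that passed the filter had smaller log2 fold changes than Ifng. Since Ifng was chosen for its difference in this contrast, nothing is read from this order. Gzmk had 424, 344, 85.7 and 20.3 CPM, both EC-Foxc-DKO mice below both Control mice, and a log2 fold change of -2.38 ± 0.56. Gzma (-0.26 ± 0.48) and Gzmb (-0.35 ± 0.37) overlapped between genotypes, with 1102, 1739, 883 and 1180 CPM for Gzmb. The granule membrane gene Nkg7 had 2203, 1794, 1614 and 997 CPM (-0.46 ± 0.27), and Prf1 was below the filter. Among chemokines, Ccl5 had both EC-Foxc-DKO mice below the Control mice (-0.61 ± 0.49), while Xcl1 rested on single cells and was below the filter. Il7r overlapped, with 84.7, 362, 294 and 386 CPM (0.60 ± 0.64).

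Of the 10 genes, 7 passed the filter, with 6 log2 fold changes below 0 and 1 above, beside a median of -0.04 over all 647 genes tested. Both EC-Foxc-DKO mice were below both Control mice for 4 of these 7, Ifng, Gzmk, Nkg7 and Ccl5, and for Tnf among the 3 that did not pass. The same held for 25.0% of all genes tested, and the reverse, both EC-Foxc-DKO mice above, for 9.12%. Ifng and Gzmk passed the filter through the Control mice alone. Since the genes were also chosen with this contrast known, nothing is read from these counts. Over the alternative settings the log2 fold change of Ifng, where it could be fitted, ranged from -4.88 without Control replicate 2 to -2.94 without Control replicate 1. The receptor gate at 2 UMIs gave no value for Ifng. That of Gzmk ranged from -3.79 without EC-Foxc-DKO replicate 1 to -1.46 at a mitochondrial limit of 20%. Gzma (-1.07 to 0.30) and Gzmb (-0.62 to 0.21) changed sign, Nkg7 ranged from -0.71 to -0.13 and Il7r from 0.02 without Control replicate 1 to 2.27 without Control replicate 2, Ccl5 stayed below 0 (-1.05 to -0.18), and Tnf, where it could be fitted, ranged from -2.31 to -1.36. The fit without the cells of subcluster 3 also lost Control replicate 1, which then had 4 cells, and its values of -2.63 for Ifng, 0.09 for Nkg7 and -2.83 for Il7r reflect both changes.

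The mix of cell states differed between the mice. Cells of subcluster 3, the naive-gene group, made up 1 of 5 and 2 of 12 CD8αβ T cells in Control mice and 24 of 43 and 5 of 12 in EC-Foxc-DKO mice, while subcluster 1 held 4, 9, 17 and 4. Within subcluster 3, Ifng was found in 1 of the 24 cells of EC-Foxc-DKO replicate 1 and in none of the other mice, and neither Gzmb nor Gzmk was found. Outside it, Ifng was at 2598, 672, 99.7 and 93.1 CPM, with 4 cells in Control replicate 1, in the order by which the gene had been chosen. Tnf outside it was at 137, 696, 215 and 93.1 CPM, with EC-Foxc-DKO replicate 1 above Control replicate 1. Gzma outside it was at 12787, 11444, 8685 and 14680 CPM and Gzmb at 1333, 2303, 1818 and 1800 CPM, so the granzymes overlapped between genotypes in these cells too. Gzmk outside it was at 513, 456, 176 and 31.0 CPM, from 15, 19, 23 and 1 UMIs. Both EC-Foxc-DKO mice were below both Control mice, but the share of all genes with this order was not worked out for these cells. Nothing is read from this order. This split was chosen after the data were seen, and the part of cell mix in the levels was not tested.

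**Figure D4:**
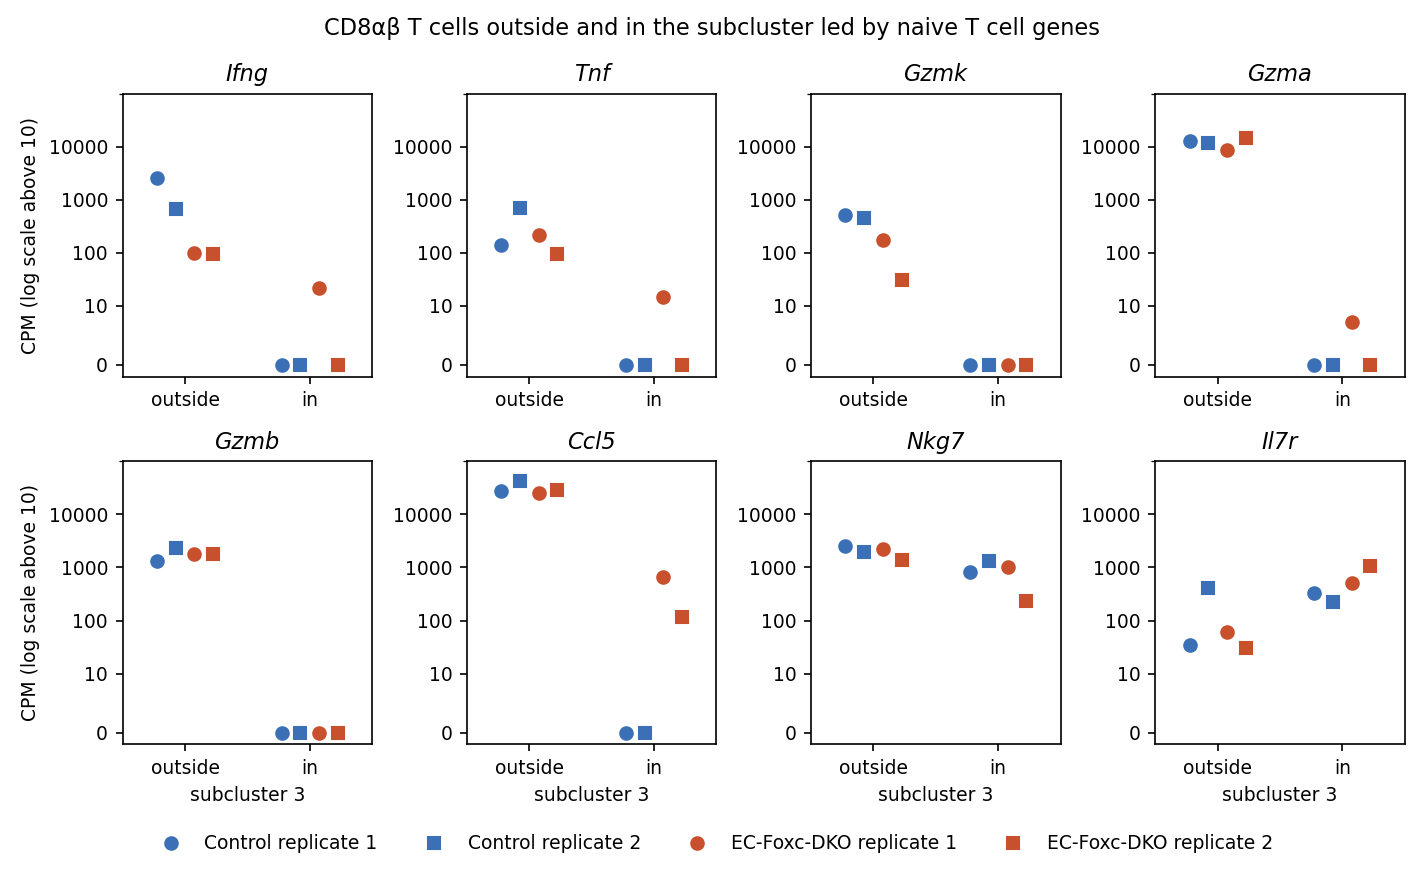
Levels of 8 of the genes in CPM (linear to 10, then a log scale) in CD8αβ T cells outside and in subcluster 3, with 1 point per mouse. The granzyme genes are at or near 0 in subcluster 3, and outside it Ifng lies at 2598 and 672 CPM in Control mice against 99.7 and 93.1 CPM in EC-Foxc-DKO mice.

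Markers of B and plasma cells were higher in the EC-Foxc-DKO mice in this class. The 8 markers of B and plasma cells summed to 0, 54.3, 6940 and 17126 CPM, with 0, 1, 6 and 5 of them detected. Nearly all of it came from immunoglobulin-rich cells, 1 in each EC-Foxc-DKO mouse, both in subcluster 1, which held 99.4 and 100% of the Igha, Igkc and Jchain UMIs of the class. These were the 3 genes called at an adjusted p under 0.05 by edgeR's quasi-likelihood test (0.464% of 647 genes), with log2 fold changes of 13.32 ± 1.38 for Jchain, 10.19 ± 1.14 for Igkc and 11.33 ± 1.37 for Igha, each at an adjusted p of 0.00826. Without those cells, an alternative added after the data were seen, edgeR called 0 of 560 genes, with 20 at an unadjusted p under 0.05. Ifng was then at 2147, 507, 49.7 and 82.5 CPM and Tnf at 113, 525, 78.7 and 82.5 CPM, the order by which both genes had been chosen. Immunoglobulin-rich cells also lay among T cells without a class, 1 in Control replicate 2 and 1 in EC-Foxc-DKO replicate 2. The γδ T cells held 1, in EC-Foxc-DKO replicate 1. Epithelial markers were highest in Control replicate 1 (2599, 616, 1133 and 1180 CPM), myeloid markers reached 119 CPM in EC-Foxc-DKO replicate 1 and were 0 in the other mice, innate lymphocyte markers were at 0, 127, 41.0 and 224 CPM, markers of stroma and vessels were at 18.1 to 40.7 CPM, and mast cell markers had no UMI. Their part in the levels was not tested.

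None of the genes that T cells induce on activation passed the test in CD8αβ T cells, which are the same cells and the same contrast on which Ifng and Tnf were chosen. Of 18 activation and early response genes, 7 passed the filter and all 7 had a log2 fold change below 0, with a median of -0.88 beside -0.04 over all 647 genes. Dusp2, a phosphatase gene of activated lymphocytes, had 678, 380, 171 and 40.7 CPM with -1.92 ± 0.56 on the log2 scale (edgeR adjusted p = 0.558). Cd69, an early activation marker, had 678, 580, 458 and 407 CPM, and Junb, a subunit of AP-1, had 1723, 1232, 1003 and 814 CPM. For each of these 3 genes both EC-Foxc-DKO mice lay below both Control mice, as held for 25.0% of the 647 genes. A gene can pass the filter through the mice of a single genotype, as Dusp2 did through the Control mice. Nothing is therefore read from the directions in this list. In Macrophage 2, 17 genes of this list were tested, 5 above and 12 below 0, at a median of -0.34, and 0 were called.

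Of 21 other cytokine and chemokine genes, 4 passed the filter and 3 were below 0, with a median of -1.51. Ccl4, which encodes another chemokine, had 8192, 2953, 1264 and 1281 CPM (-1.94 ± 0.44, edgeR adjusted p = 0.229). Fasl, the gene of the Fas ligand that triggers death in target cells, had 198, 326, 78.3 and 81.4 CPM (-1.67 ± 0.58, edgeR adjusted p = 0.774). Of 21 other granule and killing genes 4 passed the filter, 3 of them below 0, at a median of -0.48, and of 15 effector transcription factors 2 passed, both below 0, at -0.41. All 4 of the 9 naive and recirculating genes that passed, Lef1, Klf2, Tcf7 and Satb1, were above 0 (median 0.48), and 7 of the 8 intraepithelial lymphocyte genes that passed, of 12, were below 0 (median -0.45). Receptors of the 10 gene products and their signalling partners had 3 of 15 genes tested, 2 above 0, and the inducing cytokines had none of 6. None of these list genes was called by edgeR, where 0.464% of all genes were, and the genes named from the lists were chosen after their values were seen. Fasl too passed the filter through the Control mice alone, so nothing is read from the directions in these lists.

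In γδ T cells, which had no part in picking Ifng and Tnf, the genotypes could be tested, and none of the 10 genes was called. edgeR called 0 of 3933 genes (0%), with 76 at an unadjusted p under 0.05, and DESeq2 also called 0, with 9 at an unadjusted p under 0.05. The granzyme genes had log2 fold changes of 0.03 ± 0.15 for Gzma and -0.06 ± 0.26 for Gzmb. Nkg7 (-0.09 ± 0.18), Ccl5 (0.15 ± 0.19) and Prf1 (0.10 ± 0.39) were also near 0, all at an adjusted p of 1.00. Ifng, Tnf, Gzmk and Il7r did not pass the filter. Ifng had 7.95, 23.2, 14.8 and 0 CPM and Tnf had 87.5, 3.87, 22.1 and 0 CPM, with overlapping genotypes, and 0 of the 28 γδ T cells of EC-Foxc-DKO replicate 2 had either, which allows a share of up to 10.7%. Nkg7 was below both Control mice in both EC-Foxc-DKO mice (2338, 2544, 2336 and 2192 CPM), as were 16.3% of the genes tested. B and plasma cell markers summed to 95.4, 69.7, 1400 and 48.9 CPM in these cells and epithelial markers to 2374, 805, 1977 and 1331 CPM, and their part in the levels was not tested. In simulated data of this class with 3763 genes, log2 changes of 2 were recovered in 59.6% and changes of 4 in 96.6% of cases. The spread between mice was set equal for all genes there, so these shares do not give the power of the fit.

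Xcl1 was the exception in size. Its levels of 505 and 585 CPM (Control) and of 938 and 1987 CPM (EC-Foxc-DKO) did not overlap, as held for 13.7% of the genes tested in this direction. The log2 fold change of 1.37 ± 0.31 had an unadjusted p of 0.00109 and an adjusted p of 1.00 by edgeR. The call changed with the setting. With no filter on low genes, with a replicate block and without Control replicate 2 the adjusted p was 1.13e-04, 1.37e-04 and 0.00656, and in the other 10 settings Xcl1 was not called. Single cells again held much of the signal, with 27, 51, 378 and 125 UMIs in the top cell of each mouse, 21.3, 33.8, 49.5 and 61.6% of the UMIs of the gene. Without these cells Xcl1 was at 409, 404, 478 and 796 CPM. The share of γδ T cells with Xcl1 was 27.5, 36.4, 25.6 and 25.0%, so that the higher level of EC-Foxc-DKO mice did not come with a higher share of cells.

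**Figure D5:**
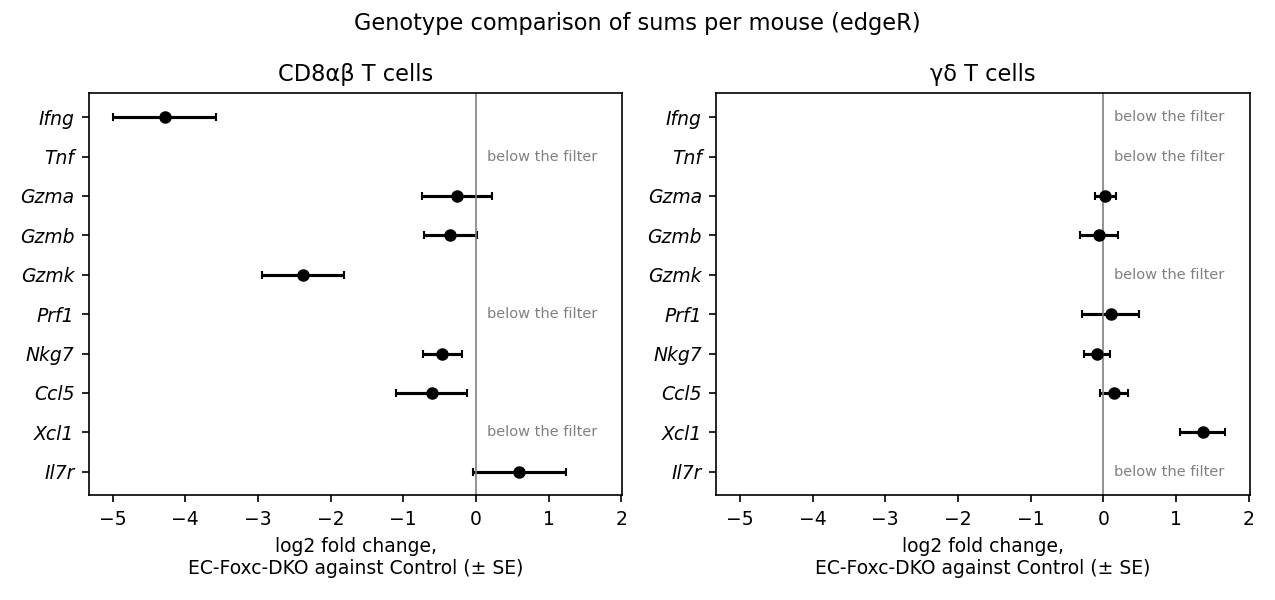
Log2 fold change of EC-Foxc-DKO against Control (points) of the 10 genes in CD8αβ and γδ T cells, from edgeR on UMIs summed per mouse. Bars show ± SE, taken from edgeR's F statistic and not read as a test in CD8αβ T cells. Genes below the filter on low counts have no value. In CD8αβ T cells Ifng lies at -4.28 and Gzmk at -2.38, whereas in γδ T cells the values other than that of Xcl1 lie between -0.09 and 0.15 and Xcl1 lies at 1.37.

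None of the list genes was called by edgeR in γδ T cells. Of the activation genes 15 were tested, 7 above and 8 below 0, at a median of -0.01 beside 0.01 over all 3933 genes. The other granule genes were split 5 to 6 (median -0.00) and the effector transcription factors 3 to 6 (-0.10). Other cytokines had 2 above and 5 below 0 (-0.38), the naive genes 2 and 2 (0.73), the intraepithelial genes 4 and 7 (-0.10) and the receptors 2 and 3 (-0.05). Ccl4 had 1698, 639, 1307 and 587 CPM and Fasl 227, 244, 193 and 127 CPM in γδ T cells, both chosen here because they were named for CD8αβ T cells.

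Outside the T lymphocytes, Tnf was the one cytokine gene with another main source. Of its 384 UMIs, 47.7% lay in Macrophage 2 and 8.33% in Macrophage 1, a cluster led by the neutrophil genes S100a8, S100a9 and Cxcr2, against 17.2% in CD8αβ and 10.7% in γδ T cells. Per UMI of the class the order was different, with 203 ± 216 CPM in CD8αβ T cells (n = 4), 161 ± 38.1 CPM in Macrophage 1 (n = 3) and 67.3 ± 31.0 CPM in Macrophage 2 (n = 4), and the neighbours in this order overlapped. Without Control replicate 2, Tnf was highest in Macrophage 1. In Macrophage 2, Tnf had 32.5, 108, 63.6 and 65.0 CPM and differed by -0.06 ± 0.53 on the log2 scale, with an adjusted p of 1.00 by edgeR, which called 0% of genes there. Macrophage 1 had no cells in Control replicate 2 and 185, 117 and 181 CPM in the other mice.

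Il7r had its highest mean in CD4 T cells, at 914 ± 935 CPM over the 2 mice with at least 5 cells. Plasmacytoid dendritic cells followed with 341 ± 66.5 CPM (n = 3), and 75.0% of their 32 cells had a UMI. CD8αβ T cells had 282 CPM, T cells without a class 253 CPM and Macrophage 2 35.7 CPM, and the SD of CD4 T cells spans all of these. In plasmacytoid dendritic cells Il7r was not called between genotypes by edgeR (0.13 ± 0.62 on the log2 scale, adjusted p = 0.998, 3 mice), where 1.02% of genes were called. Over all kept cells, γδ T cells held 64.6% of the Gzma, 66.4% of the Gzmb, 62.8% of the Nkg7, 63.3% of the Ccl5, 86.2% of the Xcl1 and 44.1% of the Prf1 UMIs.

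Of 14 pairs of a gene and a cell type tested outside the T lymphocytes, 1 was called, while the share of all genes called ranged from 0% in 4 of these 7 cell types over 0.118% in Middle Enterocytes to 1.02% in plasmacytoid dendritic cells. Ccl5 in Enteroendocrine cell 2, a cluster led by Sprr2a3, Gml2 and Krt7, had 0.688 CPM in Control replicate 1 and 4.57 and 18.9 CPM in the EC-Foxc-DKO mice, from 2, 5 and 88 UMIs, and Control replicate 2, with 3 cells, was left out of the fit. The log2 fold change was 4.27 ± 0.93 (edgeR adjusted p = 0.00903), where 0.572% of the 8395 genes of this cluster were called. The level was a small part of that in T cells, 1 cell of EC-Foxc-DKO replicate 2 held 34 of the 88 UMIs, and the call was lost with DESeq2 (adjusted p = 1.00), without high doublet scores (0.235) and at a mitochondrial limit of 20% (1.00). In blood endothelial cells (BECs), the cells in which Cre acts, Ccl5 had 6.72, 4.46, 167 and 1504 CPM (7.06 ± 1.27) and Gzma had 6.72, 0, 130 and 663 CPM (6.80 ± 1.22), both at an edgeR adjusted p of 0.541, where 0% of genes were called. In EC-Foxc-DKO replicate 2 the 177 Ccl5 UMIs came from 2 cells. In Bottom enterocytes Ccl5 (3.45 ± 1.11) and Gzma (2.42 ± 0.89) were not called, both at an edgeR adjusted p of 0.995, but both were called with no filter and without EC-Foxc-DKO replicate 1, and Ccl5 also with a crossed replicate block added after the data were seen. Ccl5 in plasmacytoid dendritic cells (6.84 ± 2.94) was not called, at an edgeR adjusted p of 0.706. For BECs, both genes were called with DESeq2, with no filter and with a replicate block. Neither was called in BECs without high doublet scores (0 of 3291 genes called by edgeR), at a mitochondrial limit of 20% (0 of 4891) or without shared barcodes (0 of 3487). Fits without Control replicate 1, EC-Foxc-DKO replicate 1 and EC-Foxc-DKO replicate 2 gave 7.34, 7.88 and 4.85 for Ccl5 on the log2 scale. For Gzma these fits gave 9.57, 7.52 and 5.37.

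Some other genes followed the 10 genes across the 23 cell classes, by Pearson correlation of log2(CPM + 10) over class means, given as a description, since the classes share libraries. Ifng was most like Cd226 (0.866), Nlrc5 (0.817) and Atp8a2 (0.811), and Tnf most like Tnfsf14 (0.959), Pstpip1 (0.870) and Lilr4b (0.864). The granule genes shared their neighbors. Actn2 and Fasl were among the closest 3 genes of Gzma (0.937 and 0.927), Gzmb (0.970 and 0.962), Gzmk (0.912 and 0.898) and Nkg7 (0.992 and 0.987), and Fasl led for Prf1 (0.910), ahead of Ctsw (0.909) and Trgv2 (0.904). The remaining neighbors were Ctsw for Gzma (0.921) and Nkg7 (0.983), Tcrg-C4 for Gzmb (0.960) and Cd226 for Gzmk (0.940). Xcl1 went with the γδ receptor genes Trgv2 (0.989), Tcrg-C2 (0.986) and Tcrg-C4 (0.981), Ccl5 with Cd8a (0.940), Itgae (0.936) and Actn2 (0.926), and Il7r with Lat (0.907), Sit1 (0.902) and Klrk1 (0.887).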

How the data were processed

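Droplet libraries of the distal jejunum, 1 from each of 4 mice, were analysed, with groups from the sample labels. The deposited values are UMI counts per gene and barcode, not normalized, which the authors made from 10x Genomics 3′ libraries with Cell Ranger on mm10 with Cre added. The submitters' processing notes name version 4.0.0, and the study's methods another version. From the counts as deposited, cells with at most 10% mitochondrial UMIs were kept (among UMIs of the 18407 genes that a table joining the libraries holds). They were clustered without the 10 genes (genes with a mean of at least 0.001, log normalization, 15 principal components, 15 neighbors, Leiden at 0.5 and, for T cells, 1.0, seed 0; scanpy 1.11.5, leidenalg 0.10.2), and clusters were named from the markers of the study. Names were rebuilt here, so cell types may not match those of the study. Scrublet's automatic calls did not work, so doublets were kept and the cells with the highest scores were removed as an alternative.

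UMIs were summed per mouse and class, and mice with under 5 cells were left out. edgeR 4.0.16 (glmQLFit, glmQLFTest, filterByExpr, TMM, R 4.3.3) was used with Benjamini-Hochberg adjustment over all genes tested at 0.05, and DESeq2 1.42.0 as an alternative. The p-values measure the spread between the mice, and where a fit held 1 mouse of a genotype, only the spread of the other genotype. The SE of a log2 fold change is its absolute size divided by the square root of edgeR's F statistic. It thus carries the same information as the test, and for the 10 genes in CD8αβ T cells it is not read as one. Levels in CPM are not scaled by TMM. Intervals of shares are exact binomial ones at 95%, and a share of 0 is given with the limit that 3 counts would set; both cover counting error only. The tests were tested on simulated data, and in CD8αβ T cells found 90% of the log2 changes of 2 and 100% of those of 4 over 718 genes, with 9 unchanged genes called, against 3 in γδ T cells. The simulation set the same spread for all genes and did not take it from these mice. These shares therefore check the code and are not the power of the fits. The text names the 10 genes, list genes with an adjusted p under 0.05, the 3 genes most like each of the 10 (pseudocount of 10 CPM, at least 50 CPM in some class) and receptors by their highest class; other list genes were chosen after their values were seen. The 10 genes, the lists and the classes were chosen with earlier results of these data known.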

Additional observations from a re-analysis of the deposited data

How the results depend on the processing

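The count of genes called in CD8αβ T cells, 3 by edgeR, was 6 with DESeq2, 10 with no filter on low genes, 11 with a replicate block, 10 to 14 when a mouse was left out (11 without Control replicate 1), and 0 with the receptor gate at 2 UMIs, where Control replicate 1 had 4 cells and fell out of the fit as well. Settings added after the data were seen gave 0 without the immunoglobulin-rich cells and 11 without subcluster 3, where Control replicate 1 also fell out. In γδ T cells the count of 0 became 27 with no filter, 3 at a mitochondrial limit of 20%, 2 with a replicate block, and 14 and 15 without Control replicates 1 and 2, within a range of 0 to 15 when a mouse was left out. Pairs of a gene and another cell type numbered 1, and 2 with DESeq2, 2 with a replicate block, 13 with no filter, 0 without high doublet scores, 0 at 20% and 5 to 8 when a mouse was left out. When 1 mouse is left out, a group of 1 mouse is assumed to vary like the other group.

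Signs near 0 were not stable. In γδ T cells, Gzma (0.03) was -0.01 at 20% and -0.01 with no filter, and -0.13 to 0.17 when a mouse was left out, below 0 without Control replicate 1 or EC-Foxc-DKO replicate 1. Gzmb (-0.06) was 0.04 without high doublet scores, and -0.64 to 0.32 when a mouse was left out, above 0 without either replicate 2. Prf1 (0.10) was -0.03 with DESeq2, -0.02 with the gate at 2 UMIs, -0.05 without high doublet scores, and -0.57 to 0.25 when a mouse was left out, below 0 without either replicate 1. Ccl5 (0.15) was -0.12 to 0.38 when a mouse was left out, below 0 without EC-Foxc-DKO replicate 1 or Control replicate 2. In Macrophage 2, Tnf (-0.06) was 0.25 at 20%, 0.02 with no filter, 0.09 with a replicate block, 0.03 with the crossed block added after the data were seen and -0.75 to 0.95 when a mouse was left out, above 0 without Control replicate 2. Il7r there (0.28) was -0.20 with a replicate block and -1.90 to 1.40 when a mouse was left out, below 0 without either replicate 2. Il7r in plasmacytoid dendritic cells (0.13) was -0.27 at 20%. Over these and the other pairs of a gene and a class followed here, 87 alternative values kept their direction and side of the threshold. Another 23 turned direction, 15 gained a call and 3 lost one. The gained calls were of Ccl5 and Gzma in BECs and of Xcl1 in γδ T cells. The lost ones were of Ccl5 in Enteroendocrine cell 2.

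The labels do not say that equal replicate numbers mark a shared litter or day, and the correlation of deviations between equally numbered mice was 0.226 in CD8αβ, -0.0489 in γδ T cells and -0.228 in Macrophage 2, so the block is given as a value. The crossed block called 66 genes in Bottom enterocytes, 3 in Crypt cells and 0 in Macrophage 2.

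The class with the highest level of a gene was one of the T cell classes in all settings tried, except for Tnf without Control replicate 2 (Macrophage 1) and for Il7r without EC-Foxc-DKO replicate 1 and by thinned shares (plasmacytoid dendritic cells). Subclusters could not stand in for the receptor classes, because none carried the name of 1 class. With 5 to 43 CD8αβ T cells per mouse and 3 to 76 Ifng UMIs, depth limits every level in that class.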

Other observations

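Receptors of the 10 gene products, and of some other cytokines that act on T cells, were found in T cells and in other cells. Ifngr1 was highest in T cells without a class (307 CPM) and γδ T cells (266 CPM). Ifngr2, its partner in the interferon gamma receptor, was highest in Middle Enterocytes (251 CPM), with 6.39 CPM in CD8αβ and 7.86 CPM in γδ T cells. Tnfrsf1a, the widely expressed TNF receptor, was highest in Top Enterocytes (241 CPM) and BECs (221 CPM), whereas Tnfrsf1b was highest in Macrophage 1 (176 CPM). Ccr1, which encodes a receptor of the Ccl5 product, was highest in Macrophage 1 (935 CPM) and Macrophage 2 (454 CPM). Ccr3 had 1 UMI and Xcr1, the receptor of the Xcl1 product, 22 UMIs in all kept cells. Il2rg, which pairs with Il7r, was highest in CD4 T cells (292 CPM), Il2rb in γδ T cells (544 CPM), Il12rb1 in γδ T cells (26.3 CPM) and Il18r1 in T cells without a class (67.0 CPM).

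Some cytokine genes whose products can act on T cells had their highest RNA levels in other cells. An effect of them on the 10 genes was not tested. Il18, an inducer of interferon gamma, was highest in Bottom enterocytes (484 CPM), and Il15, which sustains intraepithelial lymphocytes, in Top Enterocytes (87.7 CPM). Il7 was highest in lymphatic endothelial cells (LECs, 225 CPM), which numbered 5 and 10 in Control mice and 3 and 0 in EC-Foxc-DKO mice. The LEC level is a mean of the Control mice only. Tslp was highest there too (22.9 CPM), but it had 46 UMIs in all kept cells, so its value in so few LECs is near the floor. Il12a was highest in Follicular B cells (17.0 CPM), and Il12b had no UMI in any kept cell.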
